A study of Mus musculus with 4 samples.

Results

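The 10 genes described here encode S100 calcium-binding proteins: S100a1, S100a4, S100a6, S100a8, S100a9, S100a10, S100a11, S100a13, S100a16 and S100b. They were chosen by name and are 10 of the 17 S100 family genes and of the 31053 genes in the deposited table. All 10 had counts. Of the 7 other family genes, S100a2, S100a3, S100a5 and S100a14 had at most 25 unique molecular identifiers (UMIs, each standing for 1 captured transcript) over all kept cells, S100a7a had 110, S100g had 101 and S100z had 0.

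S100 proteins are small proteins that bind calcium through paired EF-hand motifs, mostly act as dimers, and change the activity of the proteins they bind inside the cell. Some are also released and act on receptors such as RAGE (Ager) and Toll-like receptor 4 (Tlr4). S100a8 and S100a9 form calprotectin, the most abundant cytosolic protein complex of neutrophils. S100a4 is widely used as a marker of motile fibroblasts and macrophages, and S100b is best known from glia and Schwann cells.

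Single-cell RNA-sequencing had been performed on carotid arteries of male C57BL/6 mice aged 11 weeks, before wire injury (day 0) and on days 3, 7 and 14 after a wire was passed through the left carotid, which strips the endothelium. Neither a mutant allele nor a drug is given for any group. Each time point was a pool of vessels from several animals in 1 library, thrombosed vessels had been left out, and dead cells had been removed by magnetic separation after enzyme digestion. No time point had a replicate, so that no difference between days could be tested; the intervals given are exact 95% intervals of counting error alone and do not cover the differences between animals or between digestions.

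The 4 libraries held 333, 1689, 3001 and 1138 cell barcodes at days 0, 3, 7 and 14, with total counts between 2672722 and 27973418 UMIs. After filtering, 5408 cells were kept, with a median of 5458 to 10764 UMIs per cell. Barcodes recurred between libraries: days 0 and 3 shared 152, days 7 and 14 shared 64, days 3 and 7 shared 1, and no other pair shared any. In 214 of these the shallower copy had over 10-fold fewer UMIs than the other and was removed, a choice made after the data were seen. With the copies kept, 11 of 23 smooth muscle-like cells at day 0 were such copies, and the smooth muscle-like ratios of S100 genes that moved with them are given both ways. Cells were grouped by clustering without the S100 genes, and clusters were named from marker genes, with 640 cells left unnamed.

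The labelled tissue was represented by fibroblast-like cells (225, 104, 184 and 510 cells at days 0, 3, 7 and 14), smooth muscle-like cells (11, 82, 60 and 74) and endothelial-like cells (6, 40, 55 and 18). Of the blood-derived classes, T cell-like cells numbered 16, 64, 363 and 94 on these days. There were 3, 472, 820 and 163 monocyte/macrophage-like cells, 0, 234, 120 and 0 neutrophil-like cells, and 0, 208, 441 and 45 dendritic-like cells. Levels below are in CPM, the UMIs of a gene in a class on a day scaled to 1000000 UMIs in total, and are given for classes of at least 20 cells and, for smooth muscle at day 0, from 11 cells. The reads were taken from transcript 3′ ends and counted once per molecule, so that CPM carries no length term.

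**Figure D1:**
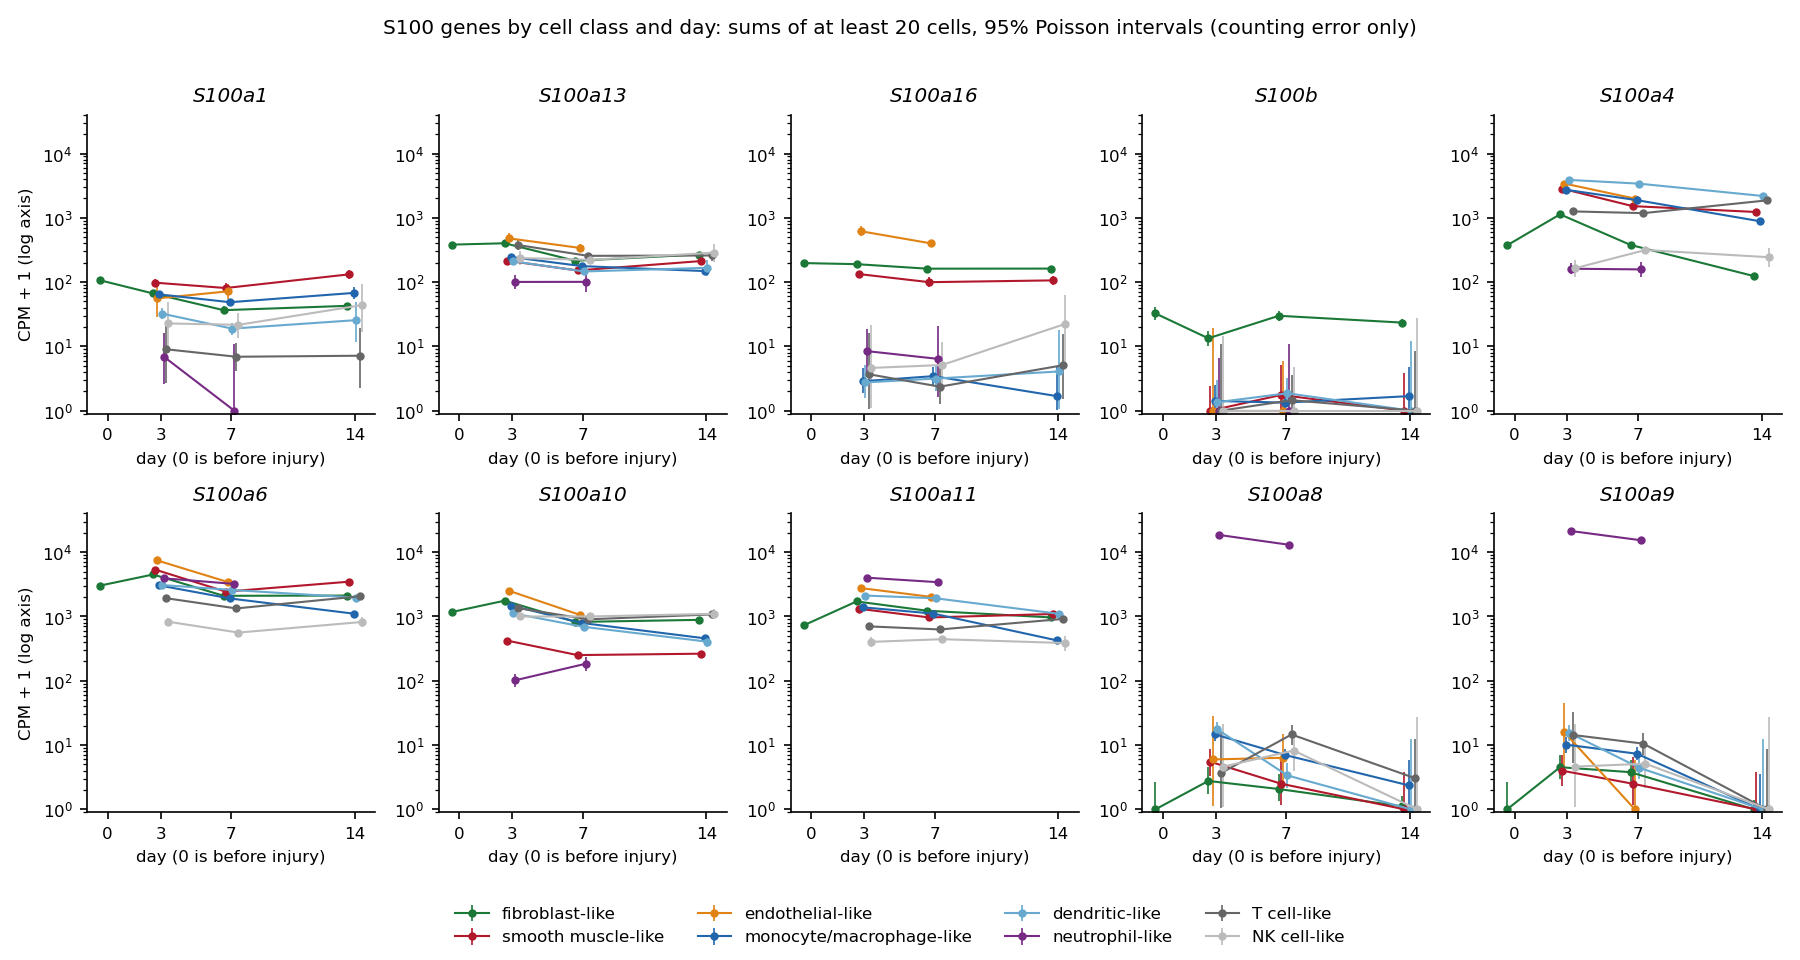
The level of each S100 gene (CPM + 1, log axis) is plotted against the day for 8 cell classes, each point being the sum of at least 20 cells with its 95% Poisson interval. S100a8 and S100a9 lie at 13017 CPM or more in neutrophil-like cells and at 16.8 CPM or less in the other classes drawn, whereas S100a6, S100a10 and S100a11 are present in every class drawn, and S100b stands at 12.3 CPM or more in fibroblast-like cells alone.

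The family had 3 patterns. S100a8 and S100a9 were neutrophil genes, S100a4, S100a6, S100a10 and S100a11 were high in most classes, and S100a1, S100a13, S100a16 and S100b were lower, of which S100a16 and S100b were low in blood-derived classes. Together the 10 genes gave 4.83% of the UMIs of neutrophil-like cells at day 3 and 3.54% at day 7. In the other classes at day 3 their share ran from 0.266% in NK cell-like to 1.73% in endothelial-like cells, and in fibroblast-like cells it was 0.601%, 0.978%, 0.496% and 0.458% at days 0, 3, 7 and 14.

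S100a8 and S100a9, the subunits of calprotectin, lie next to each other on chromosome 3. Their upstream sequences are shown because these genes had the most similar levels of any pair of members. The sequences are the 250 bases before the RefSeq start of each gene (mouse build GRCm38.p6), at chr3:90668821-90669070 on the plus strand for S100a8 and at chr3:90695722-90695971 on the minus strand for S100a9. Capitals mark TTNNGNAA, the letters of a C/EBP site, and TATAAA, the letters of a TATA box, both searched on both strands, with no overlapping matches.
S100a8: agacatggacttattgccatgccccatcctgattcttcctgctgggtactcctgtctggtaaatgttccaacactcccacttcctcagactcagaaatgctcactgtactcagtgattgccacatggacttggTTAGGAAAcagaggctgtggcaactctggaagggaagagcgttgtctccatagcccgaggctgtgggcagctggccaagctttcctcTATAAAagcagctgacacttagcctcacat
S100a9: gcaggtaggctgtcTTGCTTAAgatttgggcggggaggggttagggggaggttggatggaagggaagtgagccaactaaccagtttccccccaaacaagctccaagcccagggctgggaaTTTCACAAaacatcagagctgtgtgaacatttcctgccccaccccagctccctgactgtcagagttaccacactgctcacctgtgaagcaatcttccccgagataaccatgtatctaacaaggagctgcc
TTNNGNAA was found 117 bases before the start of S100a8, and 236 and 130 bases before that of S100a9. TATAAA was found 30 bases before the start of S100a8 and not in the window of S100a9. Among 32851 RefSeq windows that include 250 bases before a gene's start, 36.85% held TTNNGNAA and 12.4% held TATAAA, so that a match is common and only describes the sequence.

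Before injury no UMI of S100a8 or S100a9 was counted in any kept cell. The kept cells of days 3, 7 and 14 held 12664, 4993 and 7 UMIs of S100a8 and 14544, 5874 and 0 UMIs of S100a9. In neutrophil-like cells S100a8 stood at 18570 CPM (18246–18898) at day 3 and at 13017 CPM (12652–13389) at day 7, a ratio of 0.701 (0.678–0.725). S100a9 stood at 21396 CPM (21048–21748) and 15320 CPM (14924–15724), a ratio of 0.716 (0.694–0.738). Both genes were thus lower by a similar proportion at day 7, when 120 neutrophil-like cells were found against 234 at day 3. Of all S100a8 UMIs in kept cells, 98.8% at day 3 and 96.7% at day 7 were in neutrophil-like cells.

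Cell by cell, the neutrophil-like class was not uniform. The median cell at day 3 gave 0.835% of its UMIs to S100a8 and 1.18% to S100a9, and the highest cells gave 9.59% and 13.7%. At day 7 the medians were 0.328% and 0.321%, whereas the highest cells gave 10.7% and 17.9%. The 90th percentiles were 4.81% and 5.68% at day 3 and 4.04% and 4.46% at day 7. Medians and 90th percentiles were lower at day 7, while the highest single cell was not. Both genes had a UMI in 188 of 234 cells at day 3 and in 77 of 120 at day 7, and neither had one in 25 and 18 cells. The 25 cells without either gene had a median of 2343 UMIs against 2911 in the others, and the 18 cells at day 7 had 2695 against 3081. Across cells the shares of S100a8 and S100a9 went together, with a Pearson correlation of 0.87 over 234 cells and of 0.86 over 120 cells. These cells share a library and both shares carry the same total in the denominator, so that the correlation is given as a description. S100a8 went less closely with S100a11 (0.34 and 0.48) and with S100a6 (0.26 and 0.30).

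**Figure D2:**
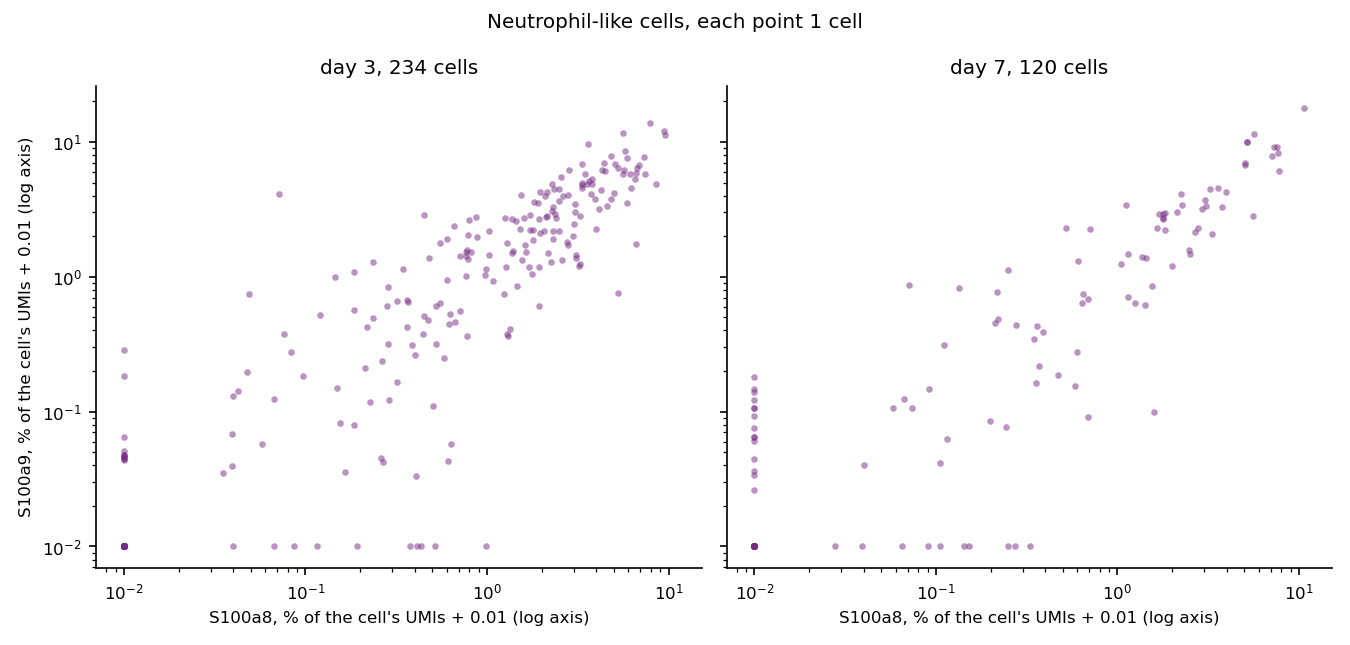
Each point is 1 neutrophil-like cell, placed by the percentage of its UMIs from S100a8 (x axis) and S100a9 (y axis), both with 0.01 added and on log axes, for 234 cells at day 3 and 120 cells at day 7. Most cells rich in one gene are also rich in the other, with exceptions, and cells on the lower or left edge have no UMI of one or both.

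Outside neutrophil-like cells S100a8 and S100a9 were found at 0 to 16.8 CPM in the named classes of at least 20 cells, apart from erythroid-like cells. Droplets can contain free RNA from other cells, so these values were read against fibroblast-like cells. That fibroblast-like cells lack both genes after injury was assumed and was not tested. At day 3, 10.4% (7.78–13.5) of 472 monocyte/macrophage-like cells and 6.73% (2.75–13.4) of 104 fibroblast-like cells had a UMI of S100a8. For S100a9 the shares were 6.99% (4.86–9.68) and 12.5% (6.83–20.4). The median depth was 8503 UMIs in the former class and 33062 UMIs in the latter. When each cell was thinned to 1000 UMIs, S100a8 was found in 8 of 464 monocyte/macrophage-like cells, a share of 1.72% (0.747–3.37), with 8 shallower cells left out. In thinned fibroblast-like cells it was found in 1 of 103, a share of 0.971% (0.0246–5.29), with 1 cell left out. Thinned neutrophil-like cells had it in 179 of 223, a share of 80.3% (74.4–85.3; 84.6% without thinning), with 11 left out. The thinned shares of these 2 classes had overlapping intervals, which so few positive cells leave wide. On the CPM scale S100a8 stood at 13.7 (10.6–17.4) in monocyte/macrophage-like cells and at 1.76 (0.709–3.63) in fibroblast-like cells. For S100a9 the levels were 9.13 CPM (6.63–12.3) and 3.53 CPM (1.93–5.92), opposite in order to the shares of cells. Free RNA adds UMIs per droplet and weighs less in the CPM of deeper cells, so UMIs per cell are given as well. They were 0.14 in monocyte/macrophage-like and 0.0673 in fibroblast-like cells for S100a8, and 0.0932 and 0.135 for S100a9, so that no order of the classes was read from these values. Whether these UMIs were free RNA or transcripts of the cells was not tested.

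The values at day 7 were similar in kind. S100a8 stood at 5.99 CPM (4.5–7.82) in monocyte/macrophage-like and 1.07 CPM (0.348–2.5) in fibroblast-like cells, and S100a9 at 6.33 CPM (4.79–8.2) and 2.78 CPM (1.48–4.76). S100a8 was found in 3.66% (2.48–5.18) of 820 monocyte/macrophage-like cells and 2.72% (0.888–6.23) of 184 fibroblast-like cells, and S100a9 in 5.24% (3.82–7) and 6.52% (3.42–11.1). After thinning, S100a8 was found in 0.62% (0.201–1.44) of 807 monocyte/macrophage-like cells and in 0 of 178 fibroblast-like cells, which allows a share of up to 2.05%. In thinned neutrophil-like cells it was found in 70.4% (60.8–78.8) of 108 cells. At day 0, neither gene had a UMI in 208 thinned fibroblast-like cells, which allows a share of up to 1.76%.

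The proportion between the genes was also compared, since RNA from one source keeps its genes in one ratio. In neutrophil-like cells there were 1.15 UMIs of S100a9 (1.12–1.18) for each UMI of S100a8 at day 3 and 1.18 (1.13–1.22) at day 7. In monocyte/macrophage-like cells the ratio was 0.667 (0.445–0.991) at day 3, from 66 and 44 UMIs, which lay below the neutrophil interval, and 1.06 (0.715–1.56) at day 7, which included it. In fibroblast-like cells it was 2.00 (0.755–5.86) at day 3 and 2.60 (0.87–9.31) at day 7, and in dendritic-like cells 0.875 (0.564–1.35) at day 3, all 3 with intervals that held the neutrophil value. The 444 unnamed cells at day 7 had 2.29 (1.34–4.02), from 21 and 48 UMIs, which lay above it. The level of S100a8 in monocyte/macrophage-like cells at day 3 was 0.0738% of the neutrophil level, whereas the median of 15 other genes of a neutrophil and red cell list was 1.47% of theirs. In the same class 1 of those 15 genes was below S100a8 on this measure, whereas 3 were below it in fibroblast-like and 10 in endothelial-like cells at day 3, and 11 of 14 in erythroid-like cells at day 7. The endothelial-like count set 1 UMI of S100a8 against 10 genes with 0 UMIs, in a sum of 201021 UMIs. No order was read from it. Macrophages also express some of these genes, such as Il1b, and the red cell gene Hbb-bs had 28 UMIs in the neutrophil-like cells it was compared with.

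Single cells carried most of the UMIs in a few classes. One of 24 erythroid-like cells at day 7 held all 32 S100a8 UMIs of that class and 32 of its 33 S100a9 UMIs. One dendritic-like cell at day 3 held 30 of 48 S100a8 UMIs, and one T cell-like cell at day 7 held 22 of 30. By contrast, 42 of the 49 monocyte/macrophage-like cells with S100a8 at day 3 had a single UMI, and none had 10 or more. Whether the few rich cells were doublets was not tested.

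**Figure D3:**
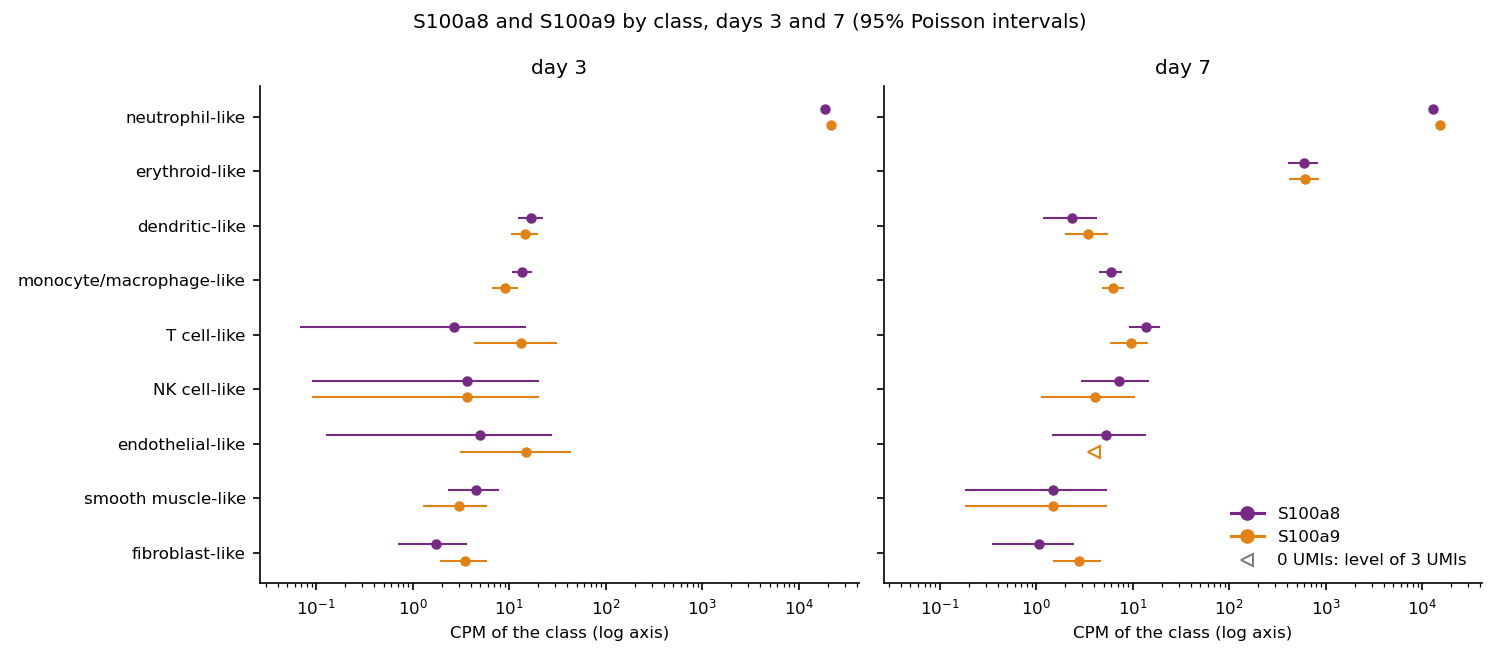
Levels of S100a8 and S100a9 (CPM, log axis) are plotted by cell class at days 3 and 7 with 95% Poisson intervals, and open triangles stand at the level of 3 UMIs where none was counted. Neutrophil-like cells lie at 18570 and 21396 CPM at day 3, the classes from dendritic-like to fibroblast-like at or below 16.8 CPM, and in erythroid-like cells at day 7 a single cell holds all 32 UMIs of S100a8 and 32 of the 33 of S100a9.

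S100a4, S100a6 and S100a11 bind annexins and cytoskeletal proteins such as non-muscle myosin, and their upstream sequences are shown because these genes gave most of the differences between days. All are on chromosome 3, with S100a5 between S100a4 and S100a6. The 250 bases before the RefSeq start (GRCm38.p6, all on the plus strand) lie at chr3:90603520-90603769 for S100a4, at chr3:90612644-90612893 for S100a6 and at chr3:93520246-93520495 for S100a11. Capitals mark TATAAA and TGANTCA, the letters of an AP-1 site, which were searched on both strands together with TTNNGNAA and did not overlap.
S100a4: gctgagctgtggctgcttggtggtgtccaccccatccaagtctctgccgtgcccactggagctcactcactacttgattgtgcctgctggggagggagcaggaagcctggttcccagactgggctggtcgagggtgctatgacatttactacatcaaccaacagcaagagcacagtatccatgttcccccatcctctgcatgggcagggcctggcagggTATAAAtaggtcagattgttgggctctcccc
S100a6: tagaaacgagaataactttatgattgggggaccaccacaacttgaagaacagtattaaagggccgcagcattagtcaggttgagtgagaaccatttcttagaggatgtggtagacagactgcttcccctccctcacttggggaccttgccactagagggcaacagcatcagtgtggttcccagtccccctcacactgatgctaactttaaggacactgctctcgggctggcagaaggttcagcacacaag
S100a11: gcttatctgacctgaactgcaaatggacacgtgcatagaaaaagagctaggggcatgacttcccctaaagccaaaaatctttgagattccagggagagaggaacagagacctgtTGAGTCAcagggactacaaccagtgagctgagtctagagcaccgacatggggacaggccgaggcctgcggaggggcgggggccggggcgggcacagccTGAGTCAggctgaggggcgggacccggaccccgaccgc
TATAAA was found 31 bases before the start of S100a4. TGANTCA was found 136 and 38 bases before the start of S100a11, and 6.75% of the 32851 windows held it. None of the 3 motifs was found in the window of S100a6, and TTNNGNAA was in none of these 3 windows. A window was given for 9 of the 10 members and not for S100a10.

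Of the broadly present members, S100a4 differed most between days in fibroblast-like and in smooth muscle-like cells. Its levels over days 0, 3, 7 and 14 were 372 (347–398), 1131 (1098–1164), 377 (360–395) and 123 CPM (116–130) in fibroblast-like cells. It was thus 3.04-fold higher (2.82–3.28) at day 3, at a similar level to day 0 at day 7, and at 0.33 of it (0.301–0.361) at day 14. The day 7 value depended on the processing, with a log2 ratio to day 0 of 0.02 that became 1.17 with clusters made separately for each library, 0.68 without doublet removal and −0.21 when each cell's CPM was averaged. The smooth muscle-like levels were 550 (413–717), 2837 (2774–2902), 1517 (1452–1585) and 1230 CPM (1170–1292). The days after injury were all above day 0, by 5.16-fold (3.95–6.88), 2.76-fold (2.11–3.69) and 2.24-fold (1.71–2.99). The day 0 value rested on 54 UMIs in 7 of 11 cells, of which 1 cell held 31. With the shallow barcode copies kept, 23 cells gave 730 CPM at day 0.

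In monocyte/macrophage-like cells S100a4 stood at 2722 (2675–2769), 1880 (1852–1908) and 880 CPM (833–929) on days 3, 7 and 14. Dendritic-like cells had the highest level at day 3, 3886 CPM (3814–3959), and kept 3395 (3342–3448) and 2185 CPM (2027–2351) on the later days. The order of classes at day 3 continued with endothelial-like cells at 3413 CPM (3162–3678), smooth muscle-like cells, monocyte/macrophage-like cells and T cell-like cells at 1256 CPM (1145–1375). The T cell-like interval overlapped that of fibroblast-like cells, 1131 CPM (1098–1164), which does not by itself show equal levels. NK cell-like cells at 163 CPM (119–218) and neutrophil-like cells at 160 CPM (132–194) were lowest, with overlapping intervals. T cell-like cells had a higher level at day 14 than at day 3, with 1863 CPM (1744–1988) and a ratio of 1.48 (1.33–1.66). Within the T cell-like cluster led by Icos and Trac the ratio was 1.4 (1.19–1.65), from 21 and 39 cells, whereas within the one led by Ccl5 and Xcl1 it was 0.857 (0.696–1.05), from 40 and 39 cells.

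S100a6, also called calcyclin, stood at 3025 CPM (2954–3099), 4500 CPM (4434–4566), 2096 CPM (2054–2138) and 2115 CPM (2084–2145) in fibroblast-like cells at days 0, 3, 7 and 14. Smooth muscle-like cells had 2097 CPM (1821–2404), 5352 CPM (5265–5441), 2434 CPM (2351–2519) and 3480 CPM (3378–3583). Day 3 was the highest day in both classes. At day 3 the order ran from endothelial-like cells with 7432 CPM (7060–7819) through smooth muscle-like and fibroblast-like to neutrophil-like cells with 3926 CPM (3778–4079). Dendritic-like and monocyte/macrophage-like cells followed with overlapping intervals, and T cell-like and NK cell-like cells were last. In endothelial-like cells the level at day 7 was 3431 CPM (3300–3567), a ratio to day 3 of 0.462 (0.433–0.492). These cells were shallow, with a median of 1112.5 UMIs in 40 cells at day 3 and 1706 in 55 cells at day 7. Their sums held 201021 and 748683 UMIs, so that a few deep cells can weigh heavily in them. Endothelial-like ratios, here and for the members below, were not rerun under the alternatives.

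S100a11, which binds annexin A1, stood at 726 CPM (691–763), 1713 CPM (1672–1754), 1228 CPM (1197–1260) and 967 CPM (946–987) in fibroblast-like cells. It was the only one of the 8 measured members whose level lay above day 0 at all 3 later days beyond counting error. Smooth muscle-like cells had 835 CPM (664–1036), 1320 CPM (1277–1364), 965 CPM (912–1019) and 1092 CPM (1035–1150). Neutrophil-like cells had the highest level of any class, 4011 CPM (3861–4165) at day 3 and 3417 CPM (3232–3611) at day 7. In monocyte/macrophage-like cells the level was 1388 CPM (1355–1422), 1107 CPM (1085–1129) and 424 CPM (391–458) at days 3, 7 and 14.

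S100a10, the member that has lost calcium binding and pairs with annexin A2, stood at 1174 CPM (1129–1220), 1763 CPM (1722–1805), 821 CPM (795–847) and 885 CPM (866–905) in fibroblast-like cells. With clusters made separately for each library, its log2 ratios to day 0 there were 0.02, −1.12 and −0.87 at days 3, 7 and 14. When each cell's CPM was averaged, they were 0.22, −1.11 and −0.65. Day 7 was thus past 2-fold lower in both settings. In smooth muscle-like cells S100a10 was lower, with 224 CPM (140–339), 421 CPM (397–447), 250 CPM (224–278) and 263 CPM (235–292). Endothelial-like cells led at day 3 with 2507 CPM (2293–2736) and had 1062 CPM (989–1138) at day 7, a ratio of 0.424 (0.378–0.474). Monocyte/macrophage-like cells had 1478 CPM (1444–1513), 792 CPM (774–811) and 456 CPM (422–492). Neutrophil-like cells, where S100a11 was high, had 101 CPM (78.4–128) of S100a10 at day 3. It was the only member that was higher there at day 7 beyond counting error, with 183 CPM (142–233) and a ratio of 1.82 (1.28–2.58), from 68 UMIs on each day.

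Among the lower members, S100a1, which is best known from heart and skeletal muscle, was highest in smooth muscle-like cells after injury. There it stood at 143 CPM (77.9–239), 96.8 CPM (85.4–109), 79.8 CPM (65.3–96.5) and 131 CPM (112–152) at days 0, 3, 7 and 14. At day 7 the interval of smooth muscle-like cells overlapped that of endothelial-like cells, with 70.8 CPM (53–92.6). In fibroblast-like cells S100a1 stood at 105 CPM (92.4–120), 65.5 CPM (57.8–74), 35.6 CPM (30.4–41.4) and 41.7 CPM (37.5–46.1), all later days lying below day 0. The size of the day 3 difference depended on the processing. Its log2 ratio to day 0 was −1.21 with clusters made separately for each library and −0.26 when each cell's CPM was averaged. Neutrophil-like cells had 4 UMIs of S100a1 at day 3 and 0 at day 7.

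S100a13, which takes part in the release of Fgf1 and Il1a, varied least between classes at day 3. It ranged from 99.5 CPM (77.1–126) in neutrophil-like cells to 478 CPM (387–583) in endothelial-like cells. The intervals of endothelial-like, fibroblast-like (400 CPM, 381–421) and T cell-like cells (377 CPM, 317–444) overlapped. Fibroblast-like cells had 382 (356–408), 213 (200–227) and 267 CPM (257–278) of it on days 0, 7 and 14. With clusters made separately for each library its log2 ratios to day 0 were −0.66, −1.47 and −0.93 at days 3, 7 and 14, against 0.07, −0.81 and −0.50 here, and with each cell's CPM averaged the day 7 ratio was −1.07. Smooth muscle-like cells had 122 (63.1–213), 214 (197–232), 151 (130–173) and 211 CPM (187–238) over days 0, 3, 7 and 14, and monocyte/macrophage-like cells 244 (230–258), 176 (168–185) and 147 CPM (128–168) over the last 3 of these. Its RefSeq start lies head to head with that of S100a1, and their promoter windows share 204 bases, yet their correlation over the class sums described below was 0.50.

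S100a16 was a stromal gene in these cells. At day 3 it stood at 617 CPM (513–735) in endothelial-like, 189 CPM (176–203) in fibroblast-like and 132 CPM (119–147) in smooth muscle-like cells, and between 1.75 and 7.42 CPM in the blood-derived classes. Fibroblast-like cells had between 161 and 196 CPM over all 4 days, the narrowest relative range of the 8 members measured in that class. With clusters made separately for each library, its log2 ratios to day 0 were −0.62, −0.95 and −0.58 at days 3, 7 and 14, against −0.05, −0.27 and −0.27 here. Endothelial-like cells had 398 CPM (354–446) at day 7, a ratio of 0.645 (0.522–0.802).

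S100b was rare. Of 493 UMIs in kept cells, 453 were in 231 of 1023 fibroblast-like cells, 26 were in unnamed cells and 14 in all other classes. Fibroblast-like cells had 31.5 CPM (24.6–39.9), 12.3 CPM (9.13–16.3), 28.9 CPM (24.2–34.2) and 22.4 CPM (19.4–25.8) at days 0, 3, 7 and 14, day 3 being the lowest. This order depended on the processing. When each cell's CPM was averaged, the log2 ratios to day 0 were −0.99, −1.37 and −0.99 at days 3, 7 and 14, against −0.89, −0.09 and −0.36 here, and without the Saa3 cluster described below the day 3 ratio was −0.34. No cluster was named Schwann cell-like, and the glial gene Sox10 had 6 UMIs in all cells together.

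Differences between days were then counted with one rule across all genes, at least a 2-fold difference on the scale of CPM + 10 with at least 20 UMIs over both sums. In fibroblast-like cells 8 of 10 members had enough UMIs, with S100a8 and S100a9 below the minimum. At day 3 against day 0, 2 of 8 were higher, S100a4 (log2 ratio 1.58) and S100a11 (1.23), and 0 were lower, where 3.41% of 10617 genes were higher and 4.06% lower. At day 7, 0 were higher and S100a1 (−1.34) was lower, where 3.79% of genes were higher and 3.28% lower. At day 14, 0 were higher and S100a1 (−1.16) and S100a4 (−1.53) were lower, where 2.41% of genes were higher and 1.58% lower. The 3 comparisons share the day 0 library. S100a11 at day 3 was below 2-fold without the Saa3 cluster described below (0.86), S100a1 was so at day 7 and day 14 when each cell's CPM was averaged (−0.96 and −0.81), and S100a4 was so at day 14 with clusters made separately for each library (−0.72). Other members passed 2-fold at day 7 under some alternatives. With clusters made separately for each library, S100a4 (1.17) was higher, and S100a6 (−1.01), S100a10 (−1.12) and S100a13 (−1.47) were also lower. When each cell's CPM was averaged, S100a10 (−1.11), S100a13 (−1.07) and S100b (−1.37) were lower. Without doublet removal 2 members were higher. The median log2 ratio of the 8 members was 0.32, −0.39 and −0.45 at days 3, 7 and 14, against −0.08, −0.03 and −0.01 over all genes measured.

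In smooth muscle-like cells 7 members had enough UMIs. At day 3, 3 of them were higher, S100a4 (2.35), S100a6 (1.35) and S100a16 (1.22), and 0 were lower, where 17.2% of 9161 genes were higher and 9.23% lower. At day 7, S100a4 (1.45) was higher and 0 were lower, where 15.9% of genes were higher and 6.79% lower. At day 14, S100a4 (1.15) was again the member that was higher and 0 were lower, where 10.9% of genes were higher and 6.39% lower. These shares of all genes were also measured against the 11 cells of day 0, and 1 of 7 members is near them. With the shallow copies kept, S100a4 had log2 ratios of 1.97, 1.04 and 0.75, so that day 14 was no longer past 2-fold, and S100a16 had 0.75 at day 3. S100a6, with 2469 CPM at day 0 in that setting, had −0.02 at day 7 and 0.49 at day 14, where it had 0.21 and 0.73 without the copies. The sign also turned for S100a10 at day 7 (from 0.15 to −0.06) and S100a1 at day 14 (from −0.11 to 0.02). S100a10 at day 7 had −0.69 with clusters made separately for each library and −0.16 when each cell's CPM was averaged. With at most 10% mitochondrial UMIs, S100a4 had 0.94 at day 14. When each cell's CPM was averaged, it had 0.20 at day 7 and 0.14 at day 14, and S100a6 had 0.89 at day 3. The median log2 ratio of the 7 members was 0.88, 0.21 and 0.73, against 0.08, 0.07 and −0.004 over all genes measured.

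Against day 3, smooth muscle-like cells could be compared without the small day 0 sum. S100a4 was at 0.535 (0.509–0.562) of its day 3 level at day 7 and at 0.433 (0.41–0.458) at day 14. S100a6 was at 0.455 (0.438–0.472) and 0.65 (0.629–0.672). S100a1 alone among the members was above day 3 at day 14 beyond counting error, with a ratio of 1.35 (1.11–1.65).

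In monocyte/macrophage-like cells day 3 was the reference, because day 0 had 3 such cells. At day 7, 9 members had enough UMIs and 0 were past 2-fold, where 1.22% of 11104 genes were higher and 0.901% lower. At day 14, 5 of 8 members were lower, S100a11 (−1.69), S100a10 (−1.68), S100a4 (−1.62), S100a6 (−1.45) and S100a8 (−1.06), and 0 were higher, where 2.41% of 10002 genes were higher and 2.59% lower. The S100a8 difference was between 66 and 2 UMIs, whose source was not tested, and neutrophil-like cells numbered 234 at day 3 and 0 at day 14. It was below 2-fold at Leiden resolution 2 (−0.89) and when centred on the median of all genes (−0.96), where 4 members were lower. S100a13 (−0.69) and S100a9 (−0.94, from 44 and 0 UMIs) were not past 2-fold. S100a1 did not differ beyond counting error, with a ratio of 1.05 (0.831–1.33). The median of the members was −0.45 at day 7 and −1.25 at day 14, against −0.07 and −0.10 over all genes measured.

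**Figure D4:**
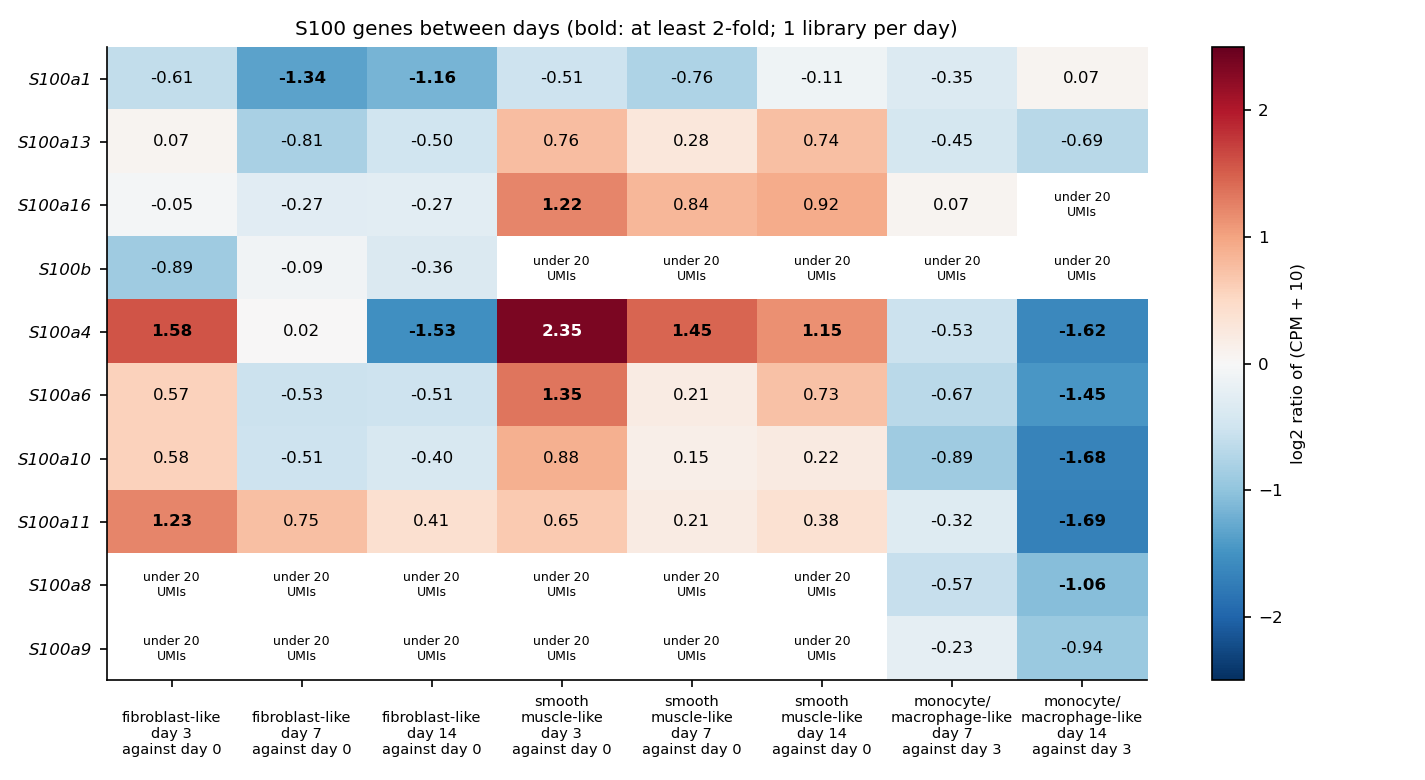
Log2 ratios of (CPM + 10) between days are drawn for the 10 members (rows) in 8 comparisons (columns), red for higher and blue for lower, with values of at least 2-fold in bold and blanks where fewer than 20 UMIs were counted over both sums. Each day is 1 library. S100a4 is the reddest member at day 3 in both vessel wall classes, and the day 14 column of monocyte/macrophage-like cells is blue for all measured members but S100a1.

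Different clusters made up a class on different days, so the members were also compared within clusters. Of the fibroblast-like cells, 88.4% at day 0 were in the cluster led by Rbp4, 42.3% at day 3 in the one led by Saa3, 57.6% at day 7 in the one led by Eln, and 49.4% at day 14 in the one led by C1qtnf3. The Saa3 cluster, an acute-phase population, held 70.1% of the fibroblast-like UMIs at day 3. S100a4 in it stood at 1059 CPM at day 3 and 432 CPM at day 7. Within the Rbp4 cluster, S100a4 stood at 409, 872 and 248 CPM on days 0, 3 and 14, ratios to day 0 of 2.13 (1.81–2.5) and 0.607 (0.519–0.708). In the same cluster S100a6 at day 3 was at 2.07 (1.94–2.2), S100a10 at 1.83 (1.64–2.03), S100a13 at 1.75 (1.43–2.12), S100a16 at 1.73 (1.3–2.26) and S100a11 at 1.51 (1.31–1.73) of day 0. At day 14 S100a10 and S100a11 were both at 0.996 of day 0 in this cluster. The higher day 3 levels were thus also present within 1 cluster, although S100a11 was there below 2-fold. The Rbp4 cluster was small at day 3, with 27 cells and 5.69% of the fibroblast-like UMIs, against 199 cells at day 0.

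The C1qtnf3 cluster had low S100a4, 26.8 CPM at day 7 and 52.1 CPM at day 14. In the cluster led by Igfbp5 and Pi16, S100a4 was at 227 CPM at day 0 and 33.6 CPM at day 14, a ratio of 0.148 (0.094–0.227), whereas S100a11 was at 720 CPM and 1830 CPM, a ratio of 2.54 (2.24–2.89). S100a1 in this cluster was at 0.231 (0.143–0.366) of day 0 at day 14. In the Rbp4 cluster it was at 1.11 (0.85–1.43), which did not differ, so that the lower S100a1 of the whole class at day 14 was not found in that cluster.

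Monocyte/macrophage-like cells changed in the same manner. The cluster led by Ccl6 and Pf4 held 58.1% of them at day 3, the one led by Plac8 and Chil3 held 52.3% at day 7, and the one led by Ms4a7 and complement C1q genes held 70.6% at day 14. At day 3 S100a4 stood at 3266 CPM in the Ccl6 cluster, 2841 CPM in the Plac8 cluster and 1190 CPM in the Ms4a7 cluster. From day 3 to day 7 the Ccl6 cluster had ratios of 0.94 (0.897–0.984) for S100a4, 0.947 (0.907–0.989) for S100a6, 1.02 (0.964–1.09) for S100a10 and 1.02 (0.952–1.08) for S100a11. This cluster held 5.37% of the class at day 7. For the same genes in this order, the ratios were 0.834, 0.745, 0.994 and 0.943 in the Plac8 cluster. They were 0.83, 0.886, 0.739 and 0.615 in the Ms4a7 cluster, and 1.13, 1.23, 0.692 and 1.68 in the cluster led by Ifit3. Within the Ms4a7 cluster, levels at day 14 were below those of day 3 for S100a11, with a ratio of 0.432 (0.375–0.498), S100a4, with 0.513 (0.46–0.573), S100a10, with 0.594 (0.511–0.69), and S100a6, with 0.763 (0.692–0.842). Of these 4, S100a11 alone was past 2-fold within this cluster. In the cluster led by Acp5 and Retnla, S100a4 was higher at day 7 than at day 3, 2757 against 1164 CPM, with a ratio of 2.37 (1.92–2.95).

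**Figure D5:**
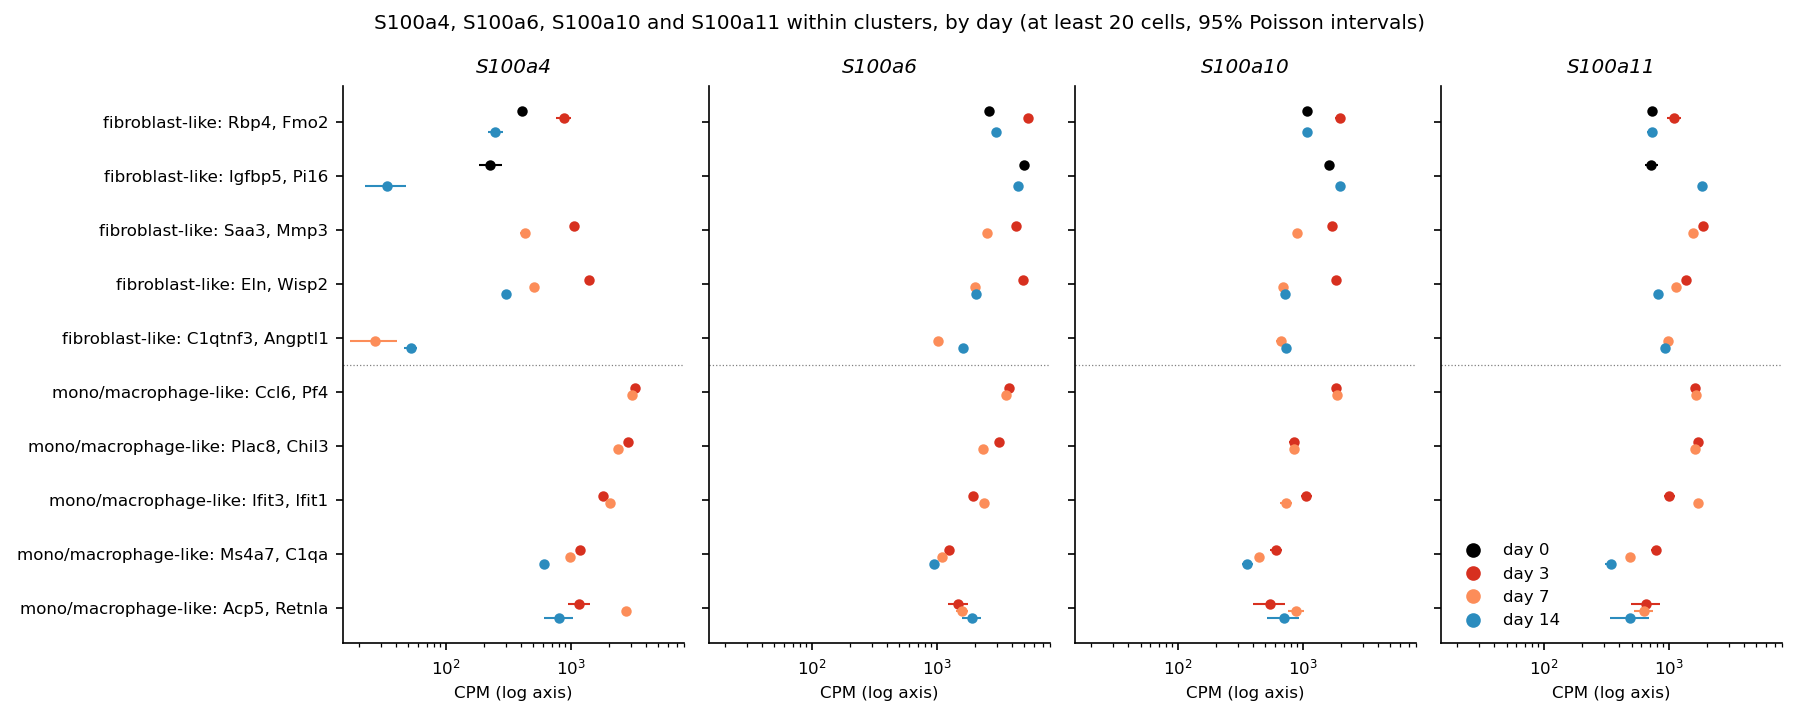
Levels (CPM, log axis) of 4 members are drawn for 5 fibroblast-like and 5 monocyte/macrophage-like clusters named by their leading genes, coloured by day, with 95% Poisson intervals, for cluster and day sums of at least 20 cells. S100a4 spans from 26.8 to 3266 CPM between clusters, and within the Rbp4 and Eln clusters day 3 lies to the right of day 14 for all 4 genes.

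Binding partners, receptors and targets of S100 proteins were followed with a list of 25 genes, read against the same percentages of all genes as above. In fibroblast-like cells 15 of them had enough UMIs at each day. At day 3, Anxa2, Emb and Plaur were higher and 0 were lower. Anxa2, the annexin partner of S100a10, stood at 678 CPM at day 0 and 1704 CPM at day 3, a ratio of 2.51 (2.38–2.66), where S100a10 had 1.5 (1.44–1.57). At day 7 Emb, a receptor described for S100a8 and S100a9, and Mmp13 were higher and Ahnak, which binds the S100a10 and annexin A2 complex, was lower. At day 14 Emb was higher and 0 were lower.

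In smooth muscle-like cells 4 of 15 partners were higher at day 3, namely Anxa1, Anxa2, Plat and Plaur, and Tlr4 was lower. Anxa2 was at 234 CPM at day 0 and 883 CPM at day 3, a ratio of 3.77 (2.51–5.96). At day 7, 3 of 14 were higher (Anxa1, Anxa2 and Plaur) and Tlr4 was lower, and at day 14, 2 of 14 were higher (Anxa1 and Plaur) and Tlr4 was lower. These smooth muscle-like values rest on the 11 cells of day 0. Partner ratios were not rerun with the shallow copies kept or under the other alternatives. In monocyte/macrophage-like cells 2 of 19 were higher at day 7 (Mmp9 and Mmp13) and 4 lower (Anxa6, Ahnak, Tlr4 and Cd36). At day 14, 3 of 16 were higher (Cd33, Plau and Mmp13) and 6 lower (Anxa2, Anxa6, Ahnak, Tlr4, Cd36 and Emb). Anxa2 there was at 1009 CPM at day 3 and 285 CPM at day 14, a ratio of 0.282 (0.255–0.312), next to 0.308 (0.284–0.334) for S100a10. The receptor gene Ager had at most 10 UMIs in any of these classes and days.

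Likeness of patterns was measured by the Pearson correlation of log2(CPM + 10) over 25 sums of a class and day with at least 20 cells. These sums share 4 libraries and their depths, and the values are a description. S100a8 and S100a9 had 0.995 with each other. S100a6 and S100a11 had 0.86, S100a10 and S100a13 had 0.83, and S100a4 and S100a6 had 0.70. Among all genes, the pattern of S100a16 was most like that of Wwtr1 (0.97), S100b was most like Wnt5a (0.95), S100a13 was most like Tram1 (0.92), S100a4 was most like Tagln2 (0.90), and S100a1 was most like Pea15a (0.90). S100a6 was most like Pgam1 (0.88), S100a11 was most like S100a6 and S100a10 was most like Atp5o (0.85).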

How the data were processed

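Mouse carotid arteries had been profiled by single-cell RNA-sequencing, with 1 library for each of 4 time points. The authors deposited UMI counts per gene and cell barcode, made with Cell Ranger, for which the file headers give version 3.0.2 and the submitters' processing notes name a build that does not belong to mouse, so that no coordinates were taken from the files. Ambient RNA removal is not given in the sources used here. The members and gene lists were chosen with earlier results of these data known.

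A barcode was kept if it had at least 200 genes and at most 20% of its UMIs from mitochondrial genes, which left out 453. Also left out were 214 shallower copies of barcodes that libraries shared. Scrublet scores were computed per library, and the 106 highest scores (1.72% of barcodes, at 0.8% per 1000 barcodes) were removed, since the caller's own threshold marked 17. Counts were scaled to 10000 per cell, and 2000 variable genes without the S100 and partner genes, 30 principal components, 15 neighbours and Leiden resolution 1 were used with scanpy 1.11.5 in Python 3.11.15. Clusters were named from at least 3 markers raised at least 3-fold. Neutrophil markers did not include S100a8 and S100a9.

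UMIs were summed over the cells of a class and day and scaled to 1000000 per sum. Intervals are exact Poisson intervals for levels, exact conditional intervals for ratios and exact Clopper-Pearson intervals for shares, all at 95%, and they cover counting error only. All 10 members are described, and the 3 genes most like each were ranked among genes reaching 50 CPM. The call of differences between days was tested on simulated data. Alternatives were other clustering resolutions, separate clustering of libraries, other filters, averaging of cells, another constant added to CPM, centring on the median of all genes and no thinning or thinning to 500 UMIs. The smooth muscle-like sum at day 0 is under the minimum of 20 cells set for other sums and was kept as the only reference before injury. RefSeq promoter windows (GRCm38.p6) were matched by gene symbol for 9 of 10 members. The results of some other genes are not reported here.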

Additional observations from a re-analysis of the deposited data

Results flagged for a closer look

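S100a4 at day 14 against day 0 had a log2 ratio of −1.53 in fibroblast-like cells and of 1.15 in smooth muscle-like cells, so that the classes lay on opposite sides of their day 0 level. The difference between the classes was not tested, since each day was 1 library, and the smooth muscle-like value rests on 11 cells at day 0. The smooth muscle-like log2 ratio was 0.75 with the shallow copies kept and 0.14 when each cell's CPM was averaged. The fibroblast-like one was −0.72 with clusters made separately for each library.

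S100g, which is not a member, had 99 UMIs at days 3, 7 and 14 together. Of these, 95 were in 1 smooth muscle-like cell of day 3 with 41656 UMIs in all, and the other 4 were in 4 cells. S100g had 2 UMIs at day 0, both in 1 fibroblast-like cell.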

How the results depend on the processing

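None of the 15 log2 ratios of at least 2-fold changed sign under any alternative run. Of all 62 log2 ratios, 12 changed sign under 1 or more of the alternatives, all of them in fibroblast-like or smooth muscle-like cells and at most 0.74 in size before. Among them were S100a13 in fibroblast-like cells at day 3, which was −0.66 with clusters made separately for each library, and, with each cell's CPM averaged, S100a11 (−0.48) and S100a13 (−0.66) in smooth muscle-like cells at day 7 and S100a13 there at day 14 (−0.31). No paired analysis was possible because each time point was 1 library. For the counts of members past 2-fold and the shares of S100a8, 206 of 226 comparisons with an alternative stayed within the range set for them and 20 moved. For the values of single members, 710 of 826 stayed and 116 moved. With the shared barcodes kept, an alternative chosen after seeing the data, 0 members were at least 2-fold higher in smooth muscle-like cells at day 14. Without the deepest fibroblast-like cluster, also added later, 1 member was higher in fibroblast-like cells at day 3. Clusters made separately for each library gave, in fibroblast-like cells, 1 lower member at day 3, 1 higher and 4 lower members at day 7, and 1 lower member at day 14, and in monocyte/macrophage-like cells 1 lower member at day 7. Without doublet removal, fibroblast-like cells had 1 lower member at day 3 and 2 higher members at day 7. With at most 10% mitochondrial UMIs, 2 members were higher in smooth muscle-like cells at day 7. With each cell's CPM averaged, the fibroblast-like class had 3 lower members at day 7 and 1 at day 14, while in smooth muscle-like cells 0 were higher at day 14. With 1 CPM added, 1 member was lower in fibroblast-like cells at day 3, 2 were higher in smooth muscle-like cells at day 14, and 1 was lower in monocyte/macrophage-like cells at day 7. The share of S100a8 UMIs in neutrophil-like cells at day 7 was 95.1% without doublet removal and 97.4% with at least 500 genes per barcode. At day 3 it was 99.04% with at most 10% mitochondrial UMIs and 99.01% with at least 500 genes. The cause of these shifts was not tested. S100a4 in fibroblast-like cells at day 3 stayed past 2-fold in all 13 alternatives (1.56 to 1.96), as did S100a4, S100a6, S100a10 and S100a11 in monocyte/macrophage-like cells at day 14 and S100a4 in smooth muscle-like cells at day 3 (1.35 to 2.48). S100a8 in monocyte/macrophage-like cells at day 14 was past it in 11 of 13. Counting error is the only error that could be given, and the 11 smooth muscle-like cells of day 0 set the limit for that class.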
